A study of Rattus norvegicus with 4 samples.

Results

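Kinesins are motor proteins that walk along microtubules by hydrolysing ATP. Some carry vesicles, organelles and proteins from the cell body towards the axon tip, others build the mitotic spindle and the midzone through which a cell divides, and a few shorten microtubules instead of walking on them. Neurons are known for their dependence on the transport motors, since their cargo has a long way to go, whereas the spindle motors are made by cells that divide.

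The genes described here are those whose name in the count files begins with Kif and a digit. There were 32 such genes among the 25810 listed, and 28 of them had at least 20 reads in all over the 4 libraries. These fell into 8 axonal transport kinesins (of the families Kif1, Kif3 and Kif5), 8 mitotic kinesins (Kif4, Kif11, Kif15, Kif18, Kif20 and Kif23) and 12 others. The Kif21 family, listed with the transport motors, had no row of that name, and Kif1a, Kif14 and Kif17 had none either, so they were not analysed here. Kif12, Kif2b, Kif4b and Kif6 had 2, 2, 1 and 12 reads over the 4 libraries, and are not followed further. Kif4b is close in sequence to Kif4. Reads that align to both may be among those not unique, which were left out, so the values of Kif4 could be too low. The same could hold for Kif27, beside which the rat assembly GRCr8, not the build of the counts, lists a gene named Kif27l1.

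RNA of 2 clones of PC12, a cell line from a rat pheochromocytoma, was sequenced in 2 libraries per clone. The clone wtPC12 has a low level of the transcriptional repressor REST, and the clone hrPC12 arose spontaneously with a high level, without any transfected construct or treatment. Each REST level is represented by a single clone, so an effect of REST cannot be told apart from whatever else distinguishes them, and nothing in the labels says that the libraries of a clone came from separate cultures, so p values measure the spread between libraries. Reads counted on genes ranged from 20975027 to 27246502 per library, and the 28 Kif genes took 2103 and 2853 CPM (counts scaled to a fixed library total) in wtPC12 and 3309 and 3373 CPM in hrPC12.

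Levels are given as normalized counts, which are reads per gene scaled to a common library size with edgeR's TMM factors. They are not divided by gene length, so they compare a gene between libraries and not one gene with another. Log2 FC is hrPC12 over wtPC12. A gene is called changed when its adjusted p is under 0.05 by the quasi-likelihood test of edgeR, adjusted after Benjamini and Hochberg over all 13726 tested genes, and DE when its adjusted p is under 0.01 and its log2 FC is above 2 or below −2. With 2 libraries per clone the smallest two-sided p that an exact permutation test could give for 1 gene is 0.333.

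Rest, the gene that the labels set apart between the clones, had 43.0 and 132 normalized counts in wtPC12 and 964 and 915 in hrPC12. Counts of marker genes called stand beside 16.3% of all tested genes called lower and 16.1% higher. Of 6 tested chromaffin markers 4 were lower in hrPC12 and none higher, and their summed level was 934145 and 797175 normalized counts in wtPC12 and 45533 and 49962 in hrPC12. Th, which codes for tyrosine hydroxylase, the first enzyme of catecholamine synthesis, fell from 202932 and 132838 normalized counts to 18729 and 21001. The 6 leukocyte markers summed to 36.1 normalized counts in both wtPC12 libraries and to 85.5 and 95.1 in hrPC12, with 1 of 2 tested higher (Cd68, 3.1-fold, adjusted p = 0.0283 by edgeR's test) and the defining marker Ptprc at 0 in 3 libraries and at 1 read in the other. The 6 fibroblast markers summed to 45.3 to 68.6 in wtPC12 and 958 to 1023 in hrPC12, with 3 of 5 tested higher and 1 lower, and Lum at 0 in wtPC12. Both tested markers of the hepatocyte and epithelial list were lower in hrPC12, and its sum of 3 genes fell from 8844 and 6796 to 814 and 831, with Alb at 3.04 normalized counts or fewer in every library. The part of these marker shifts in the kinesin results was not tested.

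Of the 28 Kif genes, 4 were lower and 6 higher in hrPC12, that is 35.7% of them, where 32.4% of all tested genes were called changed (16.3% lower and 16.1% higher). DE were 2 lower, Kif5c and Kif26b, and 1 higher, Kif24, or 10.7% against 10.3% of all tested genes (5.46% lower and 4.84% higher). The values of both libraries of one clone lay beyond both of the other in 21 of the 28 genes (7 lower and 14 higher), or 75.0%, against 73.5% of all tested genes (35.6% lower and 37.9% higher). As a family, then, kinesins were called about as often as other genes, and what follows concerns which members were called and in which direction. The median log2 FC was −0.27 over the axonal transport kinesins, 0.55 over the mitotic kinesins and 0.11 over the others, beside 0.06 over all tested genes. With a library left out, the axonal median ran from −0.53 to 0 and the mitotic one from 0.34, without hrPC12 replicate 1, to 0.55.

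**Figure D1:**
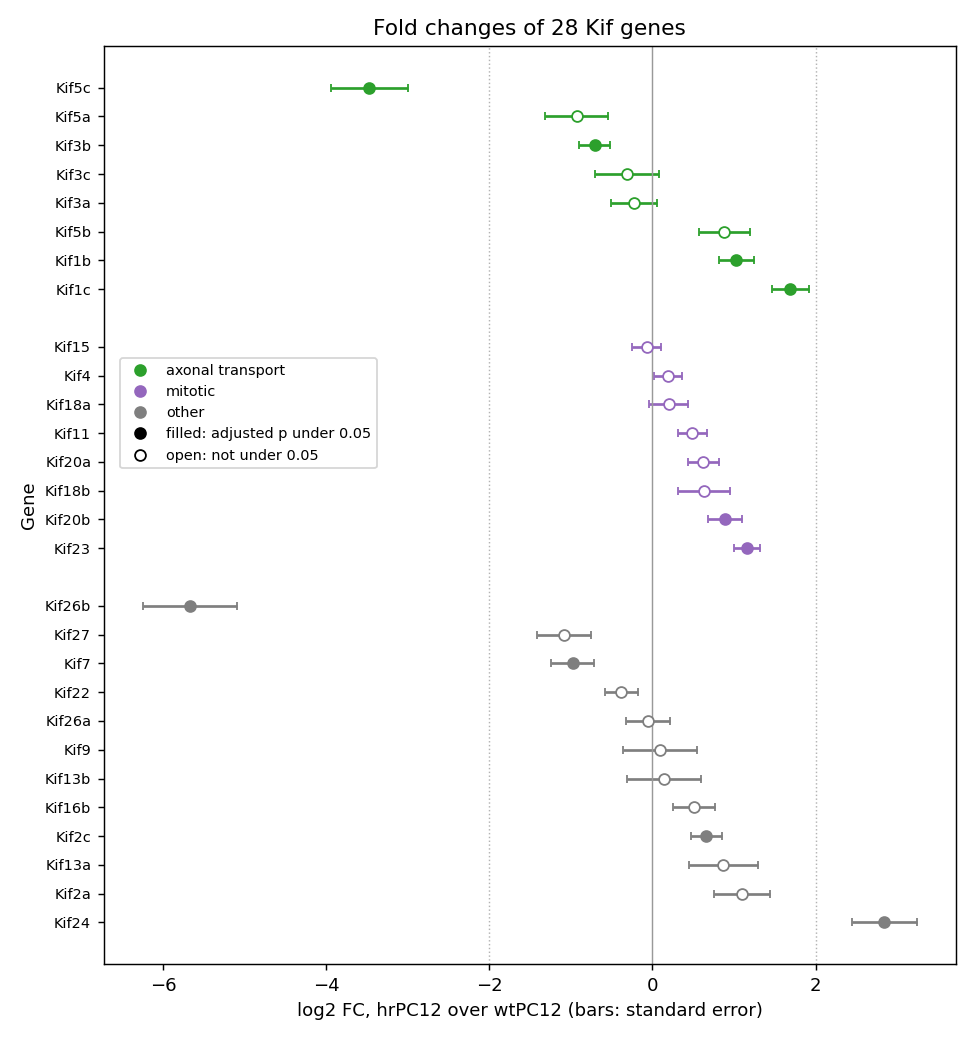
Fitted log2 FC of each of the 28 Kif genes (x axis, hrPC12 over wtPC12), with bars of 1 standard error, ordered within the 3 groups. Filled points have an adjusted p under 0.05, and the dotted lines mark the log2 FC of 2 used by the study. Kif5c, Kif26b and Kif24 lie beyond the dotted lines, and the mitotic genes lie between −0.07 and 1.16.

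To show the start of some of the genes, stretches of 100 bases upstream of the start are printed for 5 called members, and for Kif5b as a member of the Kif5 family that did not pass. The sequences are those of RefSeq on the rat build GRCr8, which is not the build of the counts. The stretches do not cover the same positions. Relative to the start they run from −120 to −21 for Kif23, −180 to −81 for Kif20b and −160 to −61 for Kif24. For Kif26b, Kif5c and Kif5b they run from −100 to −1. Capitals mark exact matches to the letters TTTGAA (known as the cell cycle homology region of genes that peak in mitosis), CCAAT (the box bound by NF-Y, read ATTGG on the other strand) and TGACGTCA (the cyclic AMP response element). Kif23, Kif20b and Kif26b carry ATTGG followed by TTTGAA, Kif24 carries ATTGG 3 times, and Kif5c carries the response element. Among called members not printed, Kif1c and Kif2c held none of these letters in the wider window described below. Kif1b and Kif3b held CCAAT there, and Kif7 had no matched window.
Kif23, chr8:71320605-71320704, minus strand: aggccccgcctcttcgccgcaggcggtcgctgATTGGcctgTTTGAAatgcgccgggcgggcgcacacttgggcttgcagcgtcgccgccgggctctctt
Kif20b, chr1:241840836-241840935, plus strand: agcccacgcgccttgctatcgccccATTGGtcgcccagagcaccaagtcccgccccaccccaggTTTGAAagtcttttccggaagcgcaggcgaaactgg
Kif24, chr5:61423943-61424042, minus strand: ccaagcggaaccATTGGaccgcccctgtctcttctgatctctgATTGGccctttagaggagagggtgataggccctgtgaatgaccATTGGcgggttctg
Kif26b, chr13:92815327-92815426, plus strand: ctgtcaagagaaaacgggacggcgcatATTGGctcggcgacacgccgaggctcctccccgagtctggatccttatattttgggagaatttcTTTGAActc
Kif5c, chr3:54441207-54441306, plus strand: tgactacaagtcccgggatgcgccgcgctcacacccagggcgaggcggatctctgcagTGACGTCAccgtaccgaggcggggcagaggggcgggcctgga
Kif5b, chr17:56185286-56185385, plus strand: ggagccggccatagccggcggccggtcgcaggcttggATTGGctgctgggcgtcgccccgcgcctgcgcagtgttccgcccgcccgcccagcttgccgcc

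Over windows of 300 bases, from 250 before to 50 after the start, 24 of the 28 genes could be matched, Kif4 under the current symbol Kif4a. Both strands were searched, and no 2 matches overlapped in these windows. TTTGAA was found in 4 of 8 mitotic, 0 of 7 axonal and 2 of 9 other kinesins, and in 18.3% of all 33469 windows of the table. CCAAT was found in 5 of 8 mitotic, 3 of 7 axonal and 3 of 9 other kinesins, beside 37.5% of all windows. The letters of E2F sites, TTCCCGC and TTTGGCGC, were found in 2 and 1 mitotic kinesins and in no other member, beside 4.21% and 0.493% of all windows. The letters of the left arm of the REST site, TTCAGCACC, were not found in any of the 24, beside 0.356% of all windows, which says only that these letters are not in this window. TGACGTCA was added after the sequence of Kif5c had been seen, and was found in 1 of 7 axonal, 2 of 8 mitotic and 0 of 9 other kinesins and in 1.83% of all windows. Called and not called members both held TTTGAA, as in Kif23 and Kif20b on one side and Kif15 and Kif4 on the other.

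Of the 8 axonal transport kinesins 2 fell, 2 rose and 4 did not pass, or 50% called against 32.4% of all tested genes. Among the 3 Kif5 genes, which code for the heavy chains of kinesin-1, Kif5c fell and the other 2 did not pass. Kif5c, a heavy chain enriched in neurons, had 1709 and 4079 normalized counts in wtPC12 and 263 and 258 in hrPC12. Both hrPC12 libraries lay far below both wtPC12 libraries, and Kif5c fell 11.1-fold (log2 FC −3.47, standard error 0.47, adjusted p = 0.00637 by edgeR's test). Kif5b, the heavy chain made in most tissues, had 1934 and 3528 normalized counts in wtPC12 and 5135 and 4947 in hrPC12. Its clones did not overlap, but at a log2 FC of 0.88 (standard error 0.31) it did not pass (adjusted p = 0.0854 by edgeR's test), and among the other normalizations, filters and tests it passed with DESeq2 alone (adjusted p = 0.0404). Kif5a, the other neuronal heavy chain, had 611 and 1265 normalized counts in wtPC12 and 520 and 467 in hrPC12, with a log2 FC of −0.93 (standard error 0.39) that did not pass (adjusted p = 0.126 by edgeR's test).

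The make-up of the Kif5 reads differed more between the clones than between libraries of a clone. Kif5b made up 45.5% (95% exact binomial interval 43.9 to 47.1) and 39.8% (38.7 to 40.8) of the Kif5 reads in wtPC12, and 86.8% (86.0 to 87.6) and 87.2% (86.3 to 88.1) in hrPC12. The share of Kif5c was 40.2% and 46.0% in wtPC12 and 4.45% and 4.55% in hrPC12. That of Kif5a was 14.4% and 14.3% in wtPC12 and 8.78% and 8.24% in hrPC12. These shares do not depend on the normalization, the intervals cover counting error only, and with 2 libraries per clone the smallest exact permutation p is 0.333. Meanwhile the summed level of the 3 genes overlapped between the clones, with 4254 and 8872 normalized counts in wtPC12 and 5918 and 5672 in hrPC12.

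**Figure D2:**
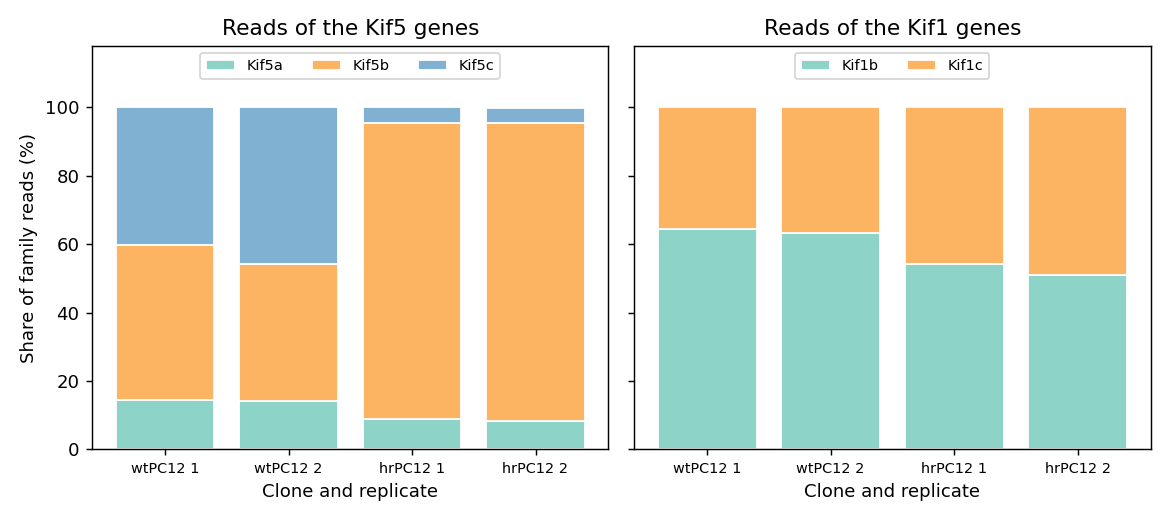
Share of the reads of the Kif5 genes (left) and of Kif1b and Kif1c (right) that fell on each member, in percent (y axis), for each of the 4 libraries (x axis). In both hrPC12 libraries Kif5b holds over 86.0% of the Kif5 reads, and Kif1c holds 45.7% and 49.0% of the Kif1 reads, against 35.6% and 36.8% in wtPC12.

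Of the Kif1 family, which codes for motors of the kinesin-3 class, Kif1b and Kif1c had rows, and both rose. Kif1a had no row of that name, so the levels and shares below leave it out. Kif1c, which is known for carrying integrins and dense core vesicles in non-neuronal and neuronal cells, had 2572 and 3719 normalized counts in wtPC12 and 9914 and 10360 in hrPC12. It rose 3.22-fold (log2 FC 1.69, standard error 0.23, adjusted p = 0.00686 by edgeR's test). Kif1b, whose isoforms carry mitochondria and precursors of synaptic vesicles, had 4661 and 6394 normalized counts in wtPC12 and 11793 and 10800 in hrPC12, and rose 2.04-fold (log2 FC 1.03, standard error 0.22, adjusted p = 0.0231 by edgeR's test). The counts per gene do not separate its isoforms. Both genes were higher in each hrPC12 library than in either wtPC12 library. Kif1c took 35.6% (34.4 to 36.8) and 36.8% (35.8 to 37.7) of the reads of the pair in wtPC12, and 45.7% (45.1 to 46.3) and 49.0% (48.3 to 49.6) in hrPC12. The summed level of the pair was 7233 and 10112 normalized counts in wtPC12 and 21707 and 21161 in hrPC12.

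The Kif3 genes code for kinesin-2, in which Kif3a pairs with Kif3b or Kif3c and binds the accessory subunit Kifap3, a motor of cilia and of axons. Kif3b had 2552 and 3111 normalized counts in wtPC12 and 1667 and 1792 in hrPC12. It fell 1.64-fold (log2 FC −0.71, standard error 0.19, adjusted p = 0.0409 by edgeR's test), without overlap between the clones. Its partner Kif3a had 1049 and 1698 normalized counts in wtPC12 and 1172 and 1171 in hrPC12, so that the hrPC12 libraries lay between those of wtPC12 (log2 FC −0.23, standard error 0.28, adjusted p = 0.551 by edgeR's test). Kif3c had 620 and 762 normalized counts in wtPC12 and 742 and 370 in hrPC12 (log2 FC −0.31, adjusted p = 0.554). Here the hrPC12 libraries were farther apart than the clones. The nearest 3 expressed genes on each side of Kif3c along the rat assembly GRCr8 were also higher in hrPC12 replicate 1 than in replicate 2, with a median log2 difference of 0.85, beside 1.0 for Kif3c itself.

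**Figure D3:**
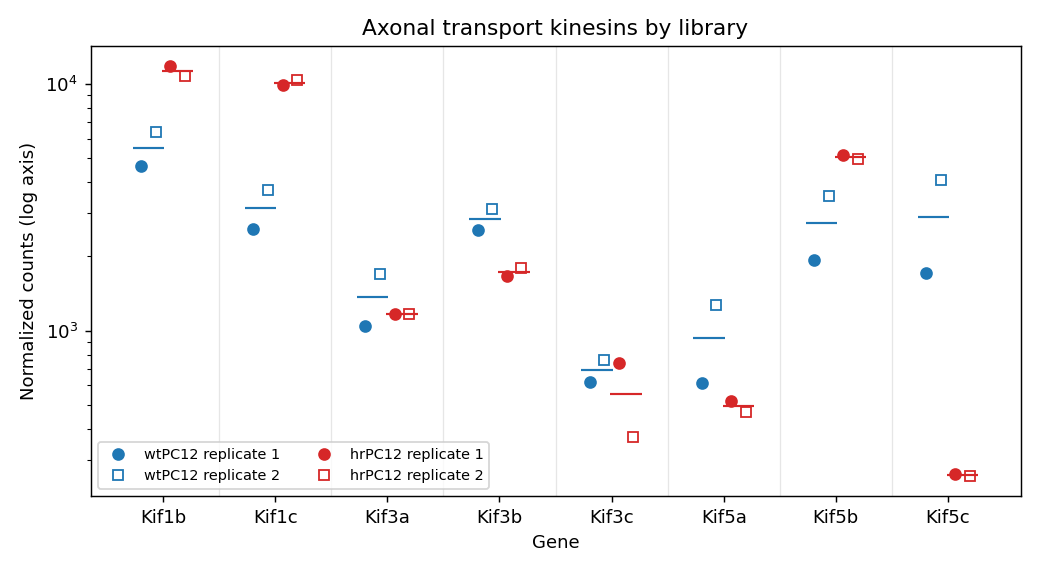
Normalized counts (y axis, log axis) of the 8 axonal transport kinesins (x axis) in each library. Circles are replicate 1 and squares replicate 2, and horizontal lines are the means of the 2 libraries of a clone. wtPC12 replicate 1 lies below replicate 2 for all 8 genes, and Kif5c and Kif1c show the widest gaps between the clones.

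Within wtPC12 the transport genes were not level between the libraries. All 8 axonal kinesins were lower in replicate 1 than in replicate 2, with a median log2 difference of −0.61, as were 10 of the 12 other kinesins (median −0.54). Only 2 of the 8 mitotic kinesins were (median 0.13), and 47.1% of all tested genes (median 0.04). The differences reached −1.40 for Kif26b, −1.35 for Kif13b, −1.26 for Kif5c and −1.05 for Kif5a. Outside the Kif genes, 14 of the 19 cargo adaptors described below were also lower in wtPC12 replicate 1 (median −0.30). Of the 21 dynein and dynactin genes 7 were (median 0.28). Between the hrPC12 libraries the medians were 0.04, 0.00 and 0.00 for the axonal, other and mitotic kinesins. What sets the wtPC12 libraries apart was not tested, and the axonal median of −0.27 moved to −0.53 when wtPC12 replicate 1 was left out and to 0 when replicate 2 was.

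Of the mitotic kinesins 2 rose, none fell and 6 did not pass, or 25.0% called against 32.4% of all tested genes (16.1% higher). A positive log2 FC was found in 7 of the 8, and in 7174 of the 13726 tested genes. Kif2c and Kif22, described below with the other kinesins, also act in mitosis. With them included, 8 of 10 had a positive log2 FC and the median was 0.55, with Kif22 at −0.38. Kif23, the motor subunit of centralspindlin that bundles midzone microtubules in cytokinesis, had 2195 and 2178 normalized counts in wtPC12 and 4784 and 4960 in hrPC12. The libraries of each clone lay close together, and Kif23 rose 2.23-fold (log2 FC 1.16, standard error 0.16, adjusted p = 0.00647 by edgeR's test). Kif20b, which also acts in cytokinesis, had 1612 and 1293 normalized counts in wtPC12 and 2966 and 2400 in hrPC12, and rose 1.85-fold (log2 FC 0.89, standard error 0.21, adjusted p = 0.0332 by edgeR's test).

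Kif20a, which brings the chromosomal passenger complex to the midzone, had 5179 and 4103 normalized counts in wtPC12 and 6811 and 7431 in hrPC12. Kif11, which pushes the spindle poles apart, had 2773 and 3404 in wtPC12 and 4353 and 4334 in hrPC12. Both were higher in each hrPC12 library, but did not pass, with log2 FC of 0.62 (standard error 0.19, adjusted p = 0.0615 by edgeR's test) and 0.49 (standard error 0.18, adjusted p = 0.0926). Kif18b, a motor of astral microtubules, had 1140 and 1166 normalized counts in wtPC12 and 2286 and 1273 in hrPC12. Its log2 FC of 0.63 rested on hrPC12 replicate 1, since it was 0.14 without that library, and the median difference of its neighbours between the hrPC12 libraries was −0.09.

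The remaining mitotic kinesins lay closest to the median of all genes. Kif15, which can stand in for Kif11, had 1653 and 1548 normalized counts in wtPC12 and 1478 and 1565 in hrPC12. Kif18a, which dampens the movements of chromosomes at the metaphase plate, had 938 and 697 in wtPC12 and 945 and 935 in hrPC12. Kif4, a motor bound to chromosomes, had 2605 and 2307 in wtPC12 and 2810 in both hrPC12 libraries. Their log2 FC were −0.07, 0.20 and 0.19, and their adjusted p values by edgeR's test 0.766, 0.532 and 0.398. In RNA of whole cultures a change in the number of dividing cells and a change in RNA per cell cannot be told apart.

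Genes that work beside the mitotic kinesins were counted from lists drawn up from general knowledge. Of 9 tested partners in the spindle and in cytokinesis 1 rose and none fell, that is 11.1% against the 32.4% of all tested genes, with a median log2 FC of −0.08. The riser was Anln, an actin-binding protein of the cleavage furrow, with 1553 and 2243 normalized counts in wtPC12 and 7944 and 5233 in hrPC12 (log2 FC 1.80, standard error 0.30, adjusted p = 0.0121 by edgeR's test). Of 9 tested proliferation markers 1 rose, also 11.1%, with a median log2 FC of 0.42, and 8 of the 9 had a positive one. This was Mcm2, a subunit of the replicative helicase, with 2949 and 3203 normalized counts in wtPC12 and 5194 and 5653 in hrPC12 (log2 FC 0.82, standard error 0.16, adjusted p = 0.0198). Racgap1, the partner of Kif23 in centralspindlin, had 8556 and 9198 normalized counts in wtPC12 and 7263 and 7941 in hrPC12, a log2 FC of −0.22 that did not pass (adjusted p = 0.334). It is named for its pairing with Kif23, after its values had been seen.

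Among the 12 other kinesins 2 fell, 2 rose and 8 did not pass, or 33.3% called against 32.4% of all tested genes. The largest difference of all 28 was that of Kif26b, an atypical kinesin known from kidney development and cell adhesion. It had 1592 and 4195 normalized counts in wtPC12 and 56.7 in both hrPC12 libraries. Kif26b fell 50.9-fold (log2 FC −5.67, standard error 0.58, adjusted p = 0.00268 by edgeR's test), and the counts in hrPC12 rest on 67 and 56 reads. Its paralog Kif26a did not pass (log2 FC −0.05, standard error 0.27, adjusted p = 0.901 by edgeR's test), with the hrPC12 libraries between those of wtPC12. Whether the 2 paralogs differ in their response was not tested.

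Kif24, which shortens microtubules at the mother centriole and holds back the growth of cilia, had 34.9 and 65.9 normalized counts in wtPC12 and 371 and 355 in hrPC12. It rose 7.16-fold (log2 FC 2.84, standard error 0.40, adjusted p = 0.00742 by edgeR's test), and its wtPC12 values rest on 30 and 64 reads. Kif7, a regulator of Hedgehog signaling at the tip of the cilium, had 535 and 704 normalized counts in wtPC12 and 327 and 301 in hrPC12. It fell 1.97-fold (log2 FC −0.98, standard error 0.26, adjusted p = 0.0426 by edgeR's test). Its relative Kif27 had 176 and 246 in wtPC12 and 93.1 and 106 in hrPC12, without overlap, at a log2 FC of −1.08 that did not pass (standard error 0.33, adjusted p = 0.0575).

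Kif2c and Kif2a belong to the kinesins that take microtubules apart from their ends. Kif2c, which corrects the attachment of chromosomes to the spindle, had 1421 and 1239 normalized counts in wtPC12 and 2002 and 2215 in hrPC12, and rose 1.58-fold (log2 FC 0.66, standard error 0.19, adjusted p = 0.0491 by edgeR's test). It stood at the edge of the threshold, with adjusted p values from 0.0415 to 0.0745 over the other normalizations, filters and tests and from 0.0668 to 0.293 with a library left out. Kif2a had 383 and 448 in wtPC12 and 1134 and 645 in hrPC12, a log2 FC of 1.10 that did not pass (standard error 0.34, adjusted p = 0.0614). Its log2 FC was 0.63 without hrPC12 replicate 1 and 1.40 without hrPC12 replicate 2, in which case it passed (adjusted p = 0.0282 by edgeR's test). Its neighbouring genes had a median log2 difference of 0.67 between hrPC12 replicates 1 and 2, ranging down to −0.10, beside 0.82 for Kif2a.

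Kif13a and Kif16b, kinesin-3 motors of endosomes, did not pass. Kif13a had 604 and 1026 normalized counts in wtPC12 and 1945 and 1031 in hrPC12 (log2 FC 0.87, standard error 0.42, adjusted p = 0.164 by edgeR's test). It was also higher in hrPC12 replicate 1 than in replicate 2 together with its neighbours, by 0.92 beside a median of 0.88, and its log2 FC was 0.34 without that library. Kif16b had 667 and 985 in wtPC12 and 1235 and 1118 in hrPC12 (log2 FC 0.51, standard error 0.26, adjusted p = 0.187). For Kif9, Kif13b, Kif22 and Kif26a the log2 FC lay between −0.38 and 0.14 and the adjusted p values between 0.192 and 0.901. Of these Kif22, a motor that pushes chromosome arms towards the equator, had both hrPC12 libraries below those of wtPC12, and the clones overlapped in the other 3.

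**Figure D4:**
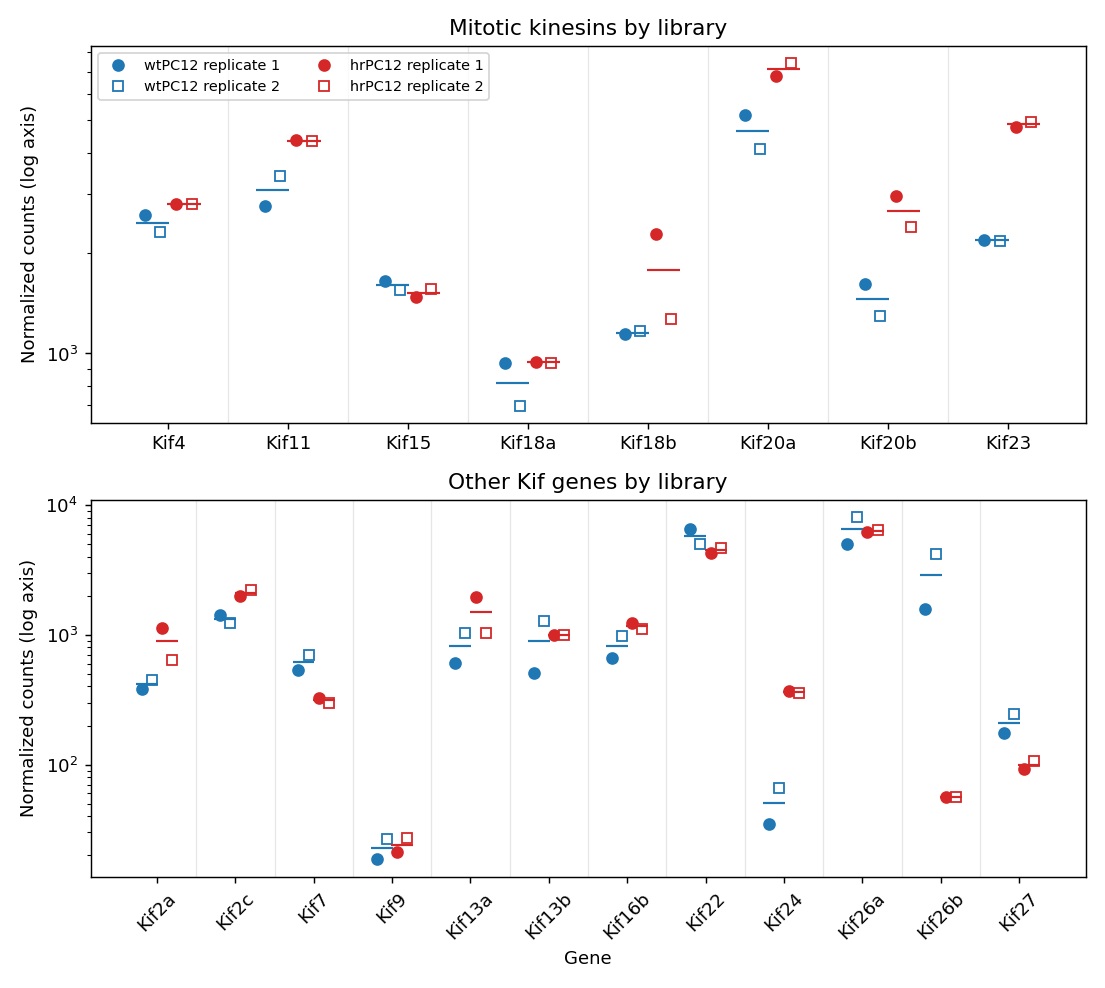
Normalized counts (y axes, log axes) of the 8 mitotic kinesins (top) and the 12 other Kif genes (bottom) in each library. Circles are replicate 1, squares replicate 2 and horizontal lines the means of a clone. Kif23 and Kif20b are higher in both hrPC12 libraries, Kif26b falls to 56.7 normalized counts, and Kif18b, Kif2a and Kif13a are higher in hrPC12 replicate 1 than in the other 3 libraries.

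Light chains of kinesins, and adaptors between motors and cargo, were followed from lists. Of 4 tested light chains and associated subunits 2 fell and none rose, beside 16.3% of all tested genes called lower. All 4 were lower in both hrPC12 libraries, beside 35.6% of all tested genes. Klc4, a light chain of kinesin-1, had 1017 and 976 normalized counts in wtPC12 and 400 and 421 in hrPC12 (log2 FC −1.28, standard error 0.21, adjusted p = 0.0113 by edgeR's test). Kifap3, the subunit of kinesin-2, had 3147 and 2800 in wtPC12 and 1948 and 1956 in hrPC12 (log2 FC −0.61, standard error 0.17, adjusted p = 0.0463).

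Of 19 tested cargo adaptors 8 fell and none rose, or 42.1%, beside 16.3% of all tested genes called lower and 16.1% higher. Of the 8, 6 were DE, or 31.6% of the list against 5.46% of all tested genes DE lower. The median log2 FC over all 19 was −0.55, with 12 negative and 7 positive. Among the positive were Bicd1, Bicd2 and Rabgef1 (0.53, 1.14 and 0.82), which are not known mainly as kinesin adaptors. Both hrPC12 libraries lay below both wtPC12 libraries in 12 of the 19, beside 35.6% of all tested genes. They lay above in 6 of the 19, none of which passed, beside 37.9% of all tested genes. Ppfia2, a liprin of presynaptic sites that binds kinesin-3, had 5912 and 6180 normalized counts in wtPC12 and 8.47 and 8.09 in hrPC12 (log2 FC −9.49, standard error 0.24, adjusted p = 0.000243 by edgeR's test). Mapk8ip2, a scaffold that joins kinesin-1 to JNK, had 2229 and 2369 in wtPC12 and 32.2 and 17.2 in hrPC12, with a log2 FC of −6.52. Fez1, an adaptor of kinesin-1 in axons, fell from 1498 and 1117 to 32.2 and 41.5, with a log2 FC of −5.15, and the liprin Ppfia3 from 936 and 1303 to 66.9 and 51.6, with one of −4.24. All 4 were higher in each wtPC12 library than in either hrPC12 library.

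Of the 3 tested kinesins whose names lie outside the rule, 1 rose and 1 fell, beside 16.1% of all tested genes called higher and 16.3% lower. Kifc3, which moves towards the minus end and acts at cell junctions, had 12.8 and 16.5 normalized counts in wtPC12 and 3449 and 3630 in hrPC12, and rose with an adjusted p = 0.000243 by edgeR's test (log2 FC 7.90, standard error 0.27). The gene listed as KIFC2, a minus-end motor known from dendrites and axons, had 1114 and 1287 in wtPC12 and 146 and 167 in hrPC12, and fell with an adjusted p = 0.00143 by edgeR's test (log2 FC −2.94, standard error 0.24). The remaining gene, listed as KIFC1_RAT, had 4737 and 4392 in wtPC12 and 3260 and 3715 in hrPC12. Its log2 FC of −0.39 did not pass (adjusted p = 0.134 by edgeR's test).

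Of the 21 genes of dynein and dynactin, the machinery that runs in the opposite direction to most kinesins, 4 fell and 3 rose, or 33.3% against 32.4% of all tested genes. Their median log2 FC was −0.04, and none was DE, against 10.3% of all tested genes. Nde1, a regulator of dynein, had 435 and 475 normalized counts in wtPC12 and 1808 and 1759 in hrPC12 (log2 FC 1.97, standard error 0.20, adjusted p = 0.00259 by edgeR's test). Dync1i1, the intermediate chain known from neurons, had 179 and 164 in wtPC12 and 521 and 578 in hrPC12, with a log2 FC of 1.68. Dynlrb1 and Dctn6 had log2 FC of −1.08 and −0.94.

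The calls were refitted with each library left out in turn, in which case the single library of a clone is assumed to vary like those of the other. Kif5c and Kif26b remained lower, and Kif1c, Kif23 and Kif24 higher, in all 4 refits, as they did under every change of normalization, filter or test. In these refits the log2 FC of Kif5c ran from −4.00 to −2.71 and that of Kif26b from −6.24 to −4.81, in both cases the weaker value without wtPC12 replicate 2 and the stronger without wtPC12 replicate 1. Without wtPC12 replicate 2 their adjusted p values by edgeR's test were 0.0149 and 0.0134, and that of Kif24 0.0190, so that none of the 28 genes was DE. Kif24 had a log2 FC from 2.43 without wtPC12 replicate 1 to 3.37 without replicate 2, Kif1c from 1.42 to 1.98, and Kif23 from 1.08 without hrPC12 replicate 2 to 1.18 without hrPC12 replicate 1.

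The other 5 calls depended on single libraries, and 3 of them also on the scaling. With library totals alone the adjusted p values of Kif3b and Kif7 by edgeR's test were 0.0688 and 0.0535, and with RLE factors that of Kif2c was 0.0745. Kif1b was called in 1 of the 4 refits, that without wtPC12 replicate 2 (log2 FC 1.28, adjusted p = 0.0251 by edgeR's test), and had adjusted p values from 0.0559 to 0.0684 in the others. Kif20b, Kif3b and Kif7 were called only without wtPC12 replicate 1, with log2 FC of 1.02, −0.88 and −1.20, and Kif2c in none, with log2 FC from 0.54 to 0.74. Conversely, Kif5a was called lower without wtPC12 replicate 1 (log2 FC −1.39, adjusted p = 0.0145) and Kif5b higher without wtPC12 replicate 2 (log2 FC 1.38, adjusted p = 0.0201), in the latter case together with Kif11, Kif13b and Kif16b. Kif27 was called lower and Kif2a higher with RLE factors, with every gene tested and with DESeq2, and Kif2a also with library totals alone, as was Kif20a. Kif27 was also called without wtPC12 replicate 1 (log2 FC −1.33, adjusted p = 0.0421), and Kif2a without hrPC12 replicate 2.

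**Figure D5:**
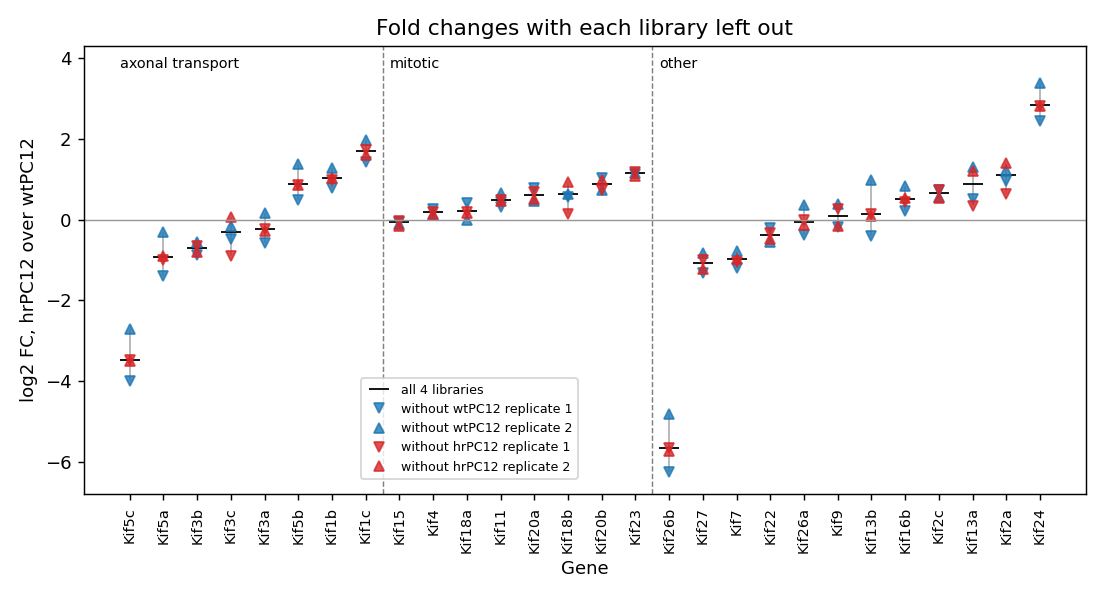
Log2 FC (y axis, hrPC12 over wtPC12) of the 28 Kif genes (x axis) with all 4 libraries (black bars) and with each library left out (triangles). The blue triangles, which leave out a wtPC12 library, spread most for Kif5c, Kif5a, Kif26b and Kif13b, and the red ones for Kif3c, Kif18b, Kif13a and Kif2a.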

How the data were processed

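RNA of the clones wtPC12 and hrPC12 was sequenced by the authors as paired-end reads, aligned to the rat build rn4 with TopHat2 2.0.4 and counted per gene with HTSeq 0.5.3, per the processing notes in the labels. The library kit (TruSeq v2) does not mark strand, so reads of overlapping antisense genes cannot be told apart. The deposited values are raw counts per gene and library, without normalization or filter. Rows of reads outside genes, ambiguous or not unique were left out of library sizes; reads on genes made up 37.9% to 41.3% of those accounted for. The authors' DESeq table holds mean levels, fold changes and p values per gene and was not used.

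Counts were analysed in R 4.3.3 with edgeR 4.0.16 (TMM factors, glmQLFit with the legacy option on, glmQLFTest) over genes with reads in both clones and a mean normalized count of 5 or more, the filter of the study, with DESeq2 1.42.0 as an alternative. The common dispersion was 0.0745. Replicates of a clone differed beyond counting noise (chi-square per gene 82.4 in wtPC12 and 59.4 in hrPC12). Scripts were tested on simulated data.

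The members, lists and tests were chosen with earlier results of these data known. Names were matched exactly, in another case, or as SYMBOL_RAT (4 of 5 light chain and associated genes, 3 of 4 other kinesins, 19 of 20 adaptors, 21 of 21 dynein and dynactin genes, 9 of 12 spindle partners, 9 of 10 proliferation markers). Every Kif gene with at least 20 reads could be named: values per library are given for the axonal and mitotic families and, among the others, for the 8 with the largest log2 FC in either direction. Up to 4 changed genes of each list are named. Neighbouring genes were ordered along the RefSeq assembly GRCr8, in which 26 of the 28 genes were found, with 3 genes of at least 50 normalized counts taken on each side.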

Additional observations from a re-analysis of the deposited data

How the results depend on the processing

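The log2 FC of each Kif gene, the median log2 FC of axonal, mitotic and all Kif genes and of all tested genes, and the counts of changed Kif and partner genes and of DE Kif genes were recomputed with DESeq2, with RLE factors, with library totals alone, with no filter beyond 1 read, with filterByExpr, without the legacy option of the fit, and with each library left out in turn. A prior count of 2 was tried for the log2 FC and the DE counts, and other adjusted p thresholds for the counts of Kif genes. The median of the 12 other kinesins and values of single partner genes, marker lists and read shares were not recomputed. No paired analysis was possible because the labels give the libraries of the clones no shared replicate numbers, and those used here only name the libraries in the order of deposit. The cause of the shifts below was not tested.

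With library totals alone 2 Kif genes were lower in place of 4, and 8 partner genes (the light chain, kinesin, adaptor, dynein and spindle lists together) were higher in place of 5. At an adjusted p under 0.01 there were 2 lower and 3 higher Kif genes in place of 4 and 6. With a library left out, 2 to 6 Kif genes were lower and 3 to 8 higher, 8 to 16 partner genes were lower (15 with all libraries) and 4 to 7 higher, and 0 to 2 Kif genes were DE lower and 0 to 1 higher. The median log2 FC then lay between −0.53 and 0 for axonal kinesins, 0.34 and 0.55 for mitotic kinesins, 0.16 and 0.42 for all Kif genes (0.20 with all libraries), and −0.01 and 0.09 for all tested genes.

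Among single Kif genes, signs turned for 5 that were not called with all libraries. Kif26a had a log2 FC of 0.01 with library totals alone. With a library left out, Kif26a ran from −0.39 without wtPC12 replicate 1 to 0.35 without wtPC12 replicate 2, and over the same 2 refits Kif3a ran from −0.57 to 0.16, Kif13b from −0.41 to 0.97 and Kif9 from −0.18 to 0.38. Kif3c ran from −0.90 without hrPC12 replicate 1 to 0.06 without hrPC12 replicate 2, and Kif9 was at −0.15 without the latter. The median over all tested genes was 0.13 with library totals alone and 0.16 with every gene tested, against 0.06. Floors of 3 reads correspond to 2.54 to 3.49 normalized counts, below every tested Kif gene in every library.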
